A study of Mus musculus with 4 samples.

Results

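The amino acid transporters described here are 10 mouse genes taken from a list of gene names, out of 46078 genes in the deposited count table. The list holds the light chains and cationic carriers Slc7a5, Slc7a11, Slc7a1 and Slc7a3, the heavy chain Slc3a2, the sodium-coupled neutral carriers Slc38a1, Slc38a2, Slc1a4 and Slc1a5, and the glycine carrier Slc6a9. All 10 were found in the count table and in the authors' table of RPKM values (reads scaled by gene length and library size), and all 10 were among the 12348 genes tested. They were measured by mRNA sequencing in MLE-12, a line of immortalised mouse alveolar epithelial cells. The 4 groups were cells labelled Lingo1 KO at 24 hours after a scratch wound, cells labelled Lingo1 KO without a scratch, WT cells 24 hours after a scratch and WT cells without one. Each group is 1 library, with no replicate. How the knockout was made, and whether it is 1 clone, is not given in the labels.

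Amino acid transporters of the plasma membrane set how much leucine, glutamine, arginine, cystine and glycine a cell can take up for protein, nucleotide and glutathione synthesis. Slc7a5 and Slc7a11 encode light chains (LAT1 and xCT) that reach the membrane only when bound to the heavy chain encoded by Slc3a2 (CD98). The transcription factor ATF4 is known to raise many of these genes when amino acids run short or the endoplasmic reticulum is stressed, through elements bound by ATF4 together with C/EBP proteins.

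The libraries held 48333801 counts (Lingo1 KO, scratched), 29533746 counts (Lingo1 KO, unscratched), 27907279 counts (WT, scratched) and 26903429 counts (WT, unscratched), so low genes were measured most precisely in the first. Lingo1 mRNA stood at 41.4 and 41.2 CPM (counts scaled by library size with TMM factors, in the usual CPM unit) in the scratched and unscratched libraries labelled Lingo1 KO, against 42.9 and 46.4 CPM in the WT ones. Its genotype coefficient of -0.11 ± 0.06 (log2, SE) did not pass edgeR's quasi-likelihood test (Benjamini-Hochberg adjusted p = 0.216). The level of Lingo1 mRNA therefore shows no clear loss under the knockout label. A gene-level mRNA count does not show whether the protein was lost, which was not measured here. Every genotype direction given here rests on the label alone. Of 9 alveolar type 2 markers, 5 reached 1 CPM, Sftpa1 and Sftpd were at 0 in all 4 libraries, and Sftpb was at 93.5 and 107 CPM in the libraries labelled KO, against 22.9 and 25.4 CPM in the WT ones. Of 5 epithelial markers, 4 reached 1 CPM. The 5 fibroblast markers summed to between 2660 and 2910 CPM, nearly all from Dcn. Of the leukocyte markers, Ptprc had 0 counts in every library, Lyz2 had 3 to 8 and Cd68 had 48 to 75 (1.57 to 1.90 CPM). Of the endothelial markers, Cdh5 had 0 counts in every library, Pecam1 had 4 to 10 and Kdr had 7 to 15, all under 1 CPM.

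The 10 transporters spanned a wide range of levels, and they had the same order in every library. Per length, on the authors' RPKM scale, Slc38a2 was the highest at 65.8 and 55.2 RPKM in the scratched and unscratched libraries labelled KO and 68.8 and 69.5 RPKM in scratched and unscratched WT cells. It exceeded 93.0% of the genes with RPKM values in the scratched library labelled KO and 93.6% of them in unscratched WT cells. Slc3a2, Slc7a5, Slc7a1, Slc38a1 and Slc1a5 followed in this order in all 4 libraries, with means over the libraries of 56.2, 40.8, 29.0, 19.4 and 16.3 RPKM. Slc6a9 averaged 7.55 RPKM, Slc1a4 2.99 RPKM, Slc7a11 1.92 RPKM and Slc7a3 1.02 RPKM. Neighbours in this order differed beyond their 95% counting intervals in each library, except that Slc7a11 and Slc7a3 in unscratched WT cells did not (ratio 1.06, interval 0.848 to 1.335). Over 32 amino acid transporters with RPKM values, these 10 and 22 others, the 10 held 39.97% and 35.003% of the summed RPKM in the scratched and unscratched libraries labelled KO, against 41.4% and 38.2% in scratched and unscratched WT cells.

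**Figure D1:**
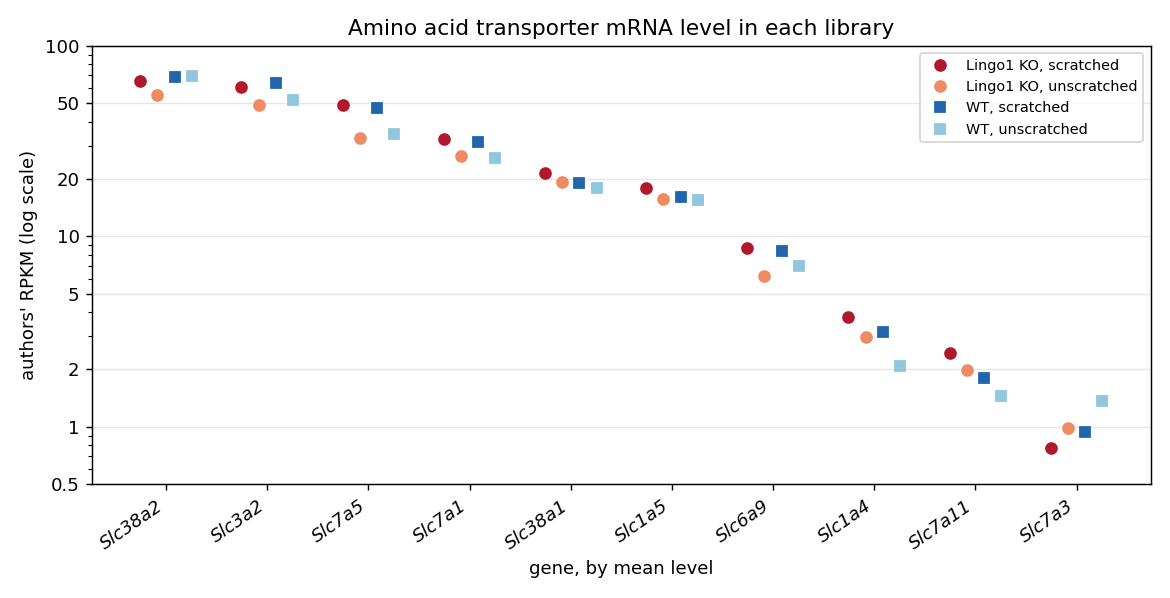
The authors' RPKM value (log axis) of each transporter in each of the 4 libraries, 1 point a library with no error bar because no group was replicated; circles are labelled Lingo1 KO and squares WT, dark scratched and light unscratched. Slc38a2 is at the top in every library, and Slc7a3 is the only gene whose scratched points lie below the unscratched points in both genotypes.

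Scratched cells were set against unscratched cells to see how the transporters stood 24 hours after wounding. Of the 10 transporters, 6 rose and 0 fell after the scratch: Slc7a5, Slc1a4, Slc6a9, Slc7a11, Slc3a2 and Slc7a1. The test was edgeR's quasi-likelihood test on an additive model of genotype and scratch over all 4 libraries, with Benjamini-Hochberg adjustment at 0.05. It called 2.91% of the 12348 genes tested, 1.47% as risen and 1.44% as fallen. The transporters and the lists below were chosen with earlier results of these data known. Their shares beside those of all genes are therefore a description and not an independent test. Of these calls 50.4% were rises, against 40.1% when total counts replaced the TMM scaling. The median coefficient was 0.30 (log2) for the 10 transporters and 0.01 for all genes tested. This fit has 1 residual degree of freedom, and its p-values compare these 4 libraries, with no replicate culture. DESeq2 on the same design called 3 of the 10, Slc7a5, Slc3a2 and Slc7a1, and gave no adjusted p for Slc1a4 and Slc7a3. With limma on the authors' RPKM values Slc7a5 alone was called, with Slc3a2 and Slc7a1 just past the limit (adjusted p = 0.0506 and 0.0607). Over all genes DESeq2 called 0.332% and limma 0.375%.

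The genotypes were also compared on their own. Here a gene is called when the lower of its CPM values is at most 0.8 of the higher one and the exact 95% Clopper-Pearson interval of the ratio, which covers counting error only, leaves out 1. Under the KO label 4 of the 10 were called higher (Slc7a5, Slc6a9, Slc1a4 and Slc3a2) and 0 lower, where 3.64% of all genes tested were called, 1.47% higher and 2.16% lower. In WT cells 3 were called higher (Slc1a4, Slc7a5 and Slc7a11) and 1 lower (Slc7a3), where 6.46% of all genes were called, 2.31% higher and 4.15% lower. Slc3a2 under the KO label (1.251-fold) and Slc7a11 in WT cells (1.253-fold) lay at the fold limit. With total counts they were at 1.237-fold and 1.243-fold and lost their calls, which left 3 called either way in each genotype. Slc3a2 in WT cells, not called, was at 1.226-fold, close to its value under the KO label. The median log2 fold was 0.30 under the KO label and 0.28 in WT cells, against 0.01 and 0.02 over all genes tested. As bulk RNA was sequenced, fewer cells of a kind and less RNA per cell cannot be told apart.

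**Figure D2:**
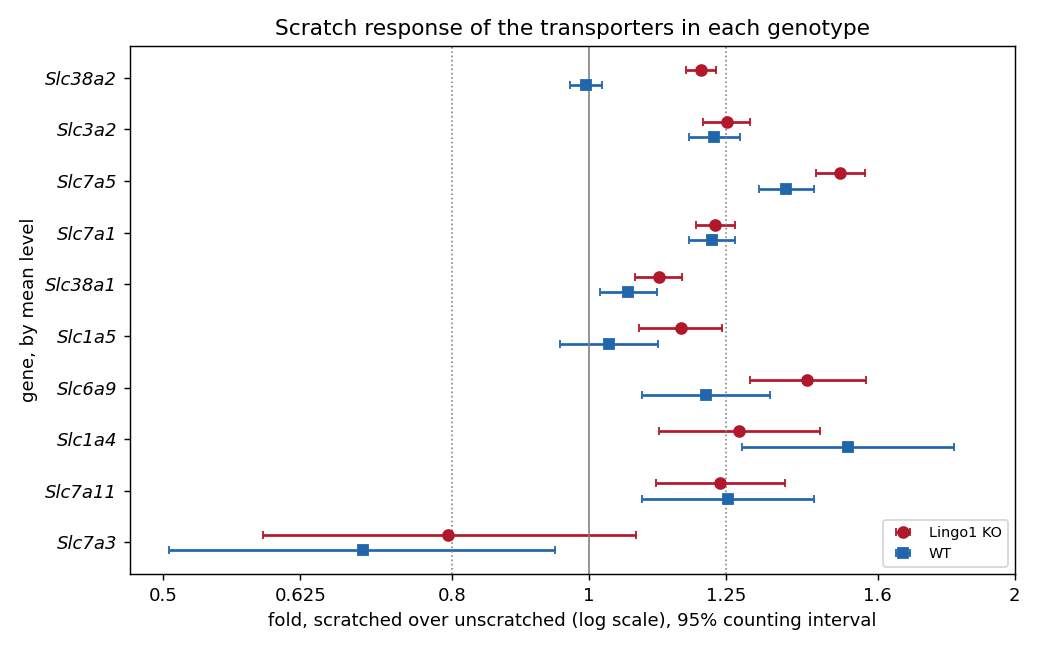
Fold of each transporter, scratched over unscratched (log axis), in cells labelled Lingo1 KO (circles) and WT cells (squares), with bars for the 95% counting interval and dotted lines at 0.8 and its inverse. Slc7a5, Slc6a9 and Slc1a4 lie farthest to the right among the circles and Slc1a4 and Slc7a5 among the squares. Slc7a3 is left of 1, and Slc38a2 is at 1.20 under the KO label and at 0.996 in WT cells.

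Slc7a5 (ENSMUSG00000040010, chromosome 8, 121881150 to 121907694, minus strand, mm10) encodes LAT1, which brings in leucine and other large neutral amino acids in exchange for glutamine. It had the largest scratch coefficient of the 10. It was counted at 173 and 115 CPM in the scratched and unscratched libraries labelled KO, and at 166 and 120 CPM in scratched and unscratched WT cells. Both scratched libraries stood above both unscratched ones, with folds of 1.51 (1.45 to 1.57) under the KO label and 1.38 (1.32 to 1.44) in WT cells. The share of all genes whose libraries separate in such a way was not counted, here or for the genes below. The coefficient was 0.53 ± 0.06 (log2, SE, adjusted p = 5.45e-06 by edgeR's quasi-likelihood test), which ranked 53 from the top among the 12348 genes. The genotypes differed little, with a coefficient of 0.00 ± 0.06 (adjusted p = 0.973, edgeR). The sign of that value changed with the scaling of the libraries.

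Slc3a2 (ENSMUSG00000010095, chromosome 19, 8706882 to 8723369, minus strand), the heavy chain, had a smaller scratch response than Slc7a5 in each genotype. It had 171 and 137 CPM in the scratched and unscratched libraries labelled KO and 179 and 146 CPM in scratched and unscratched WT cells. The groups did not overlap, at folds of 1.251 (1.205 to 1.299) under the KO label and 1.23 (1.18 to 1.28) in WT cells, and the coefficient was 0.31 ± 0.06 (adjusted p = 0.00267, edgeR). The log2 scratch response of Slc7a5 exceeded that of Slc3a2 by 0.27 under the KO label (counting interval 0.19 to 0.35) and by 0.17 in WT cells (0.08 to 0.26), a difference in which the library scaling cancels. Per length there were 1.24 and 1.49 Slc3a2 RPKM for each Slc7a5 RPKM in the scratched and unscratched libraries labelled KO, and 1.35 and 1.52 in scratched and unscratched WT cells.

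Of the other light chains known to pair with the heavy chain, Slc7a6 and Slc7a7 could be tested besides Slc7a11, and neither passed after the scratch. Slc7a6, which encodes the exchanger y+LAT2 for cationic and neutral amino acids, was above Slc7a5 in both unscratched libraries and below it in both scratched ones, at 41.6 and 38.7 RPKM in the scratched and unscratched libraries labelled KO and 44.6 and 41.4 RPKM in scratched and unscratched WT cells. Its scratch coefficient was 0.11 ± 0.06 (adjusted p = 0.343, edgeR), and the response of Slc7a5 was larger than that of Slc7a6 by 0.48 (0.40 to 0.56) under the KO label and 0.35 (0.26 to 0.44) in WT cells on the log2 scale. Of the summed RPKM of the 4 light chains with RPKM values (Slc7a5, Slc7a6, Slc7a7 and Slc7a11), Slc7a5 made up 51.1% and 42.9% in the scratched and unscratched libraries labelled KO, against 49.2% and 43.3% in scratched and unscratched WT cells. Slc7a11 made up 2.54% and 2.59% in the scratched and unscratched libraries labelled KO, against 1.88% and 1.82% in scratched and unscratched WT cells.

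Slc7a11 (ENSMUSG00000027737, chromosome 3, 49892526 to 50443614, minus strand) encodes xCT, which imports cystine in exchange for glutamate and so feeds glutathione synthesis. It was among the lowest of the 10, and it was higher in both libraries labelled KO than in either WT library. It had 22.6 and 18.2 CPM in the scratched and unscratched libraries labelled KO, against 16.6 and 13.2 CPM in scratched and unscratched WT cells, from 359 to 1082 counts a library. Within each genotype the scratched library was the higher one, but scratched and unscratched libraries overlap across genotypes. The labelled KO to WT fold was 1.36 (1.22 to 1.52) with a scratch and 1.38 (1.20 to 1.58) without, and the genotype coefficient was 0.45 ± 0.09 (adjusted p = 0.000342, edgeR). The scratch coefficient of 0.32 ± 0.09 passed narrowly (adjusted p = 0.0474, edgeR). It missed the threshold with DESeq2's size factors (0.0572), with total counts (0.0697), with DESeq2 (1.00) and with limma on RPKM values (0.290), over a range of 0.0345 to 1.00 for 6 alternatives, all adjusted p-values.

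Slc1a4 (ENSMUSG00000020142, chromosome 11, 20302180 to 20332713, minus strand) encodes ASCT1, a sodium-dependent exchanger of alanine, serine, cysteine and threonine. It changed in both comparisons. It had 14.8 and 11.6 CPM in the scratched and unscratched libraries labelled KO and 12.4 and 8.12 CPM in scratched and unscratched WT cells, from 220 to 711 counts. The unscratched WT library was the lowest of the 4, and its counts enter the scratch fold in WT cells, 1.52 (1.28 to 1.81), and the labelled KO to WT fold without a scratch, 1.43 (1.21 to 1.70). The other folds were 1.28 (1.12 to 1.46) for the scratch under the KO label and 1.20 (1.05 to 1.37) for labelled KO over WT after the scratch. The coefficients were 0.47 ± 0.10 for the scratch (adjusted p = 0.00959) and 0.38 ± 0.10 for the genotype (adjusted p = 0.00685), both by edgeR's quasi-likelihood test. With limma the scratch value did not pass (adjusted p = 0.1104), and with DESeq2 the genotype value did not (adjusted p = 0.306).

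The promoter windows of Slc7a11 and Slc1a4, the transporters that rose both after the scratch and under the KO label, are shown because both hold the core of the C/EBP-ATF response element. The motif searched was TGATGNAA on either strand, in RefSeq windows (GRCm38.p6, the build also called mm10) from 250 bases before to 50 bases after a transcript start. Such windows were given for 6 of the 10 genes (Slc7a11, Slc6a9, Slc7a1, Slc1a4, Slc38a2 and Slc3a2, 9 windows in all), and 3.97% of all 32851 windows hold the motif. The window of each gene is shown 5′ to 3′ on the gene's strand with the matches in capitals; Slc7a11 lies at chr3:50443564-50443863 and Slc1a4 at chr11:20332664-20332963, both on the minus strand.
Slc7a11: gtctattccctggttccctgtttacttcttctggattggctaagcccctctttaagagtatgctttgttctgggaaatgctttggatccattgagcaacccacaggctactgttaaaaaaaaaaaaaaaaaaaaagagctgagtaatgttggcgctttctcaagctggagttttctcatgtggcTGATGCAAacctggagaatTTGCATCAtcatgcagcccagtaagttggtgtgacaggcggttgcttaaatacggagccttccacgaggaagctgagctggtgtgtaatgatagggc
Slc1a4: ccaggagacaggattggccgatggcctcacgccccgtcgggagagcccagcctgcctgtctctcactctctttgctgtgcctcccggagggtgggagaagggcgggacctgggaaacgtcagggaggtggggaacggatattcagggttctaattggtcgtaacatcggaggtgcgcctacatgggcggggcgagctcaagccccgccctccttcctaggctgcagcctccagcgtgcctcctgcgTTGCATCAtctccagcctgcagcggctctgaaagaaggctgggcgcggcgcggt

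In Slc7a11 the motif occurs once on each strand, from -66 to -59 and from -47 to -40 relative to the transcript start, and in both places its letters are TGATGCAA. In Slc1a4 it occurs once, on the opposite strand, across the start itself (from -4 to 4), again as TGATGCAA. The motif was not in the windows of Slc3a2, Slc7a1, Slc6a9 and Slc38a2, 3 of which also rose after the scratch. A pair of other motifs was chosen after the values were seen. The AP-1 element TGANTCA, whose match reads on both strands, was found in Slc7a1 alone, from -123 to -117, and in 7.81% of all windows. The core of the antioxidant response element, TGACNNNGC, was found in windows of Slc38a2, Slc6a9 and Slc7a1 but not of Slc7a11, and in 12.4% of all windows. A match is a string of letters and was not tested for binding.

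Slc7a1 (ENSMUSG00000041313, chromosome 5, 148327410 to 148399904, minus strand) encodes CAT1, the widely expressed importer of arginine and lysine. It had 234 and 191 CPM in the scratched and unscratched libraries labelled KO and 225 and 184 CPM in scratched and unscratched WT cells. Both scratched libraries were above both unscratched ones, by 1.23-fold (1.19 to 1.27) under the KO label and 1.22-fold (1.18 to 1.27) in WT cells, just under the fold limit, and the coefficient was 0.29 ± 0.06 (adjusted p = 0.00392, edgeR).

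The other cationic carriers did not share this direction. Slc7a3 (ENSMUSG00000031297, chromosome X, 101079210 to 101086020, minus strand), which encodes CAT3, had 2.15 and 2.704 CPM in the scratched and unscratched libraries labelled KO and 2.58 and 3.73 CPM in scratched and unscratched WT cells, from 72 to 103 counts a library. It was lower after the scratch in each genotype, at 0.795-fold (0.588 to 1.08) under the KO label and 0.693-fold (0.505 to 0.946) in WT cells, but the coefficient of -0.43 ± 0.19 did not pass (adjusted p = 0.249, edgeR). Slc7a2, which encodes CAT2, was at 33.8 and 39.7 RPKM in the scratched and unscratched libraries labelled KO and 22.5 and 25.5 RPKM in scratched and unscratched WT cells. Its scratch coefficient was -0.20 ± 0.06 (adjusted p = 0.0559, edgeR). The log2 response of Slc7a1 was above that of Slc7a2 by 0.52 (0.46 to 0.58) under the KO label and 0.46 (0.38 to 0.54) in WT cells.

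Slc38a2 (ENSMUSG00000022462, chromosome 15, 96687392 to 96699730, minus strand) encodes SNAT2, the sodium-coupled carrier of glutamine and alanine that is known to be raised by amino acid shortage. Its unscratched library labelled KO stood apart from the other libraries. It had 404 and 337 CPM in the scratched and unscratched libraries labelled KO, against 421 and 423 CPM in scratched and unscratched WT cells, from 9973 to 19366 counts. The labelled KO to WT fold was 0.960 (0.938 to 0.982) with a scratch and 0.797 (0.776 to 0.819) without. The genotype coefficient of -0.19 ± 0.06 passed as lower under the KO label (adjusted p = 0.0215, edgeR), but not with DESeq2 (0.118) or limma (0.0720), over a range of 0.00933 to 0.118 for 6 alternatives. The scratch coefficient was 0.13 ± 0.06 (adjusted p = 0.299, edgeR), over responses of 1.20-fold (1.17 to 1.23) under the KO label and 0.996-fold (0.970 to 1.02) in WT cells.

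Slc38a1 (ENSMUSG00000023169, chromosome 15, 96571418 to 96642913, minus strand) lies 44478 bases from Slc38a2 on the same strand and encodes SNAT1, a carrier of the same kind. It had 157 and 140 CPM in the scratched and unscratched libraries labelled KO and 138 and 129 CPM in scratched and unscratched WT cells. These values overlap between scratched and unscratched libraries and not between genotypes, and neither the scratch coefficient of 0.13 ± 0.06 (adjusted p = 0.266) nor the genotype coefficient of 0.15 ± 0.06 (adjusted p = 0.0568) passed edgeR's test. The log2 labelled KO to WT difference of Slc38a2 minus that of Slc38a1 was -0.24 (-0.31 to -0.18) with a scratch and -0.44 (-0.52 to -0.37) without. Per length there were 3.06 and 2.86 Slc38a2 RPKM for each Slc38a1 RPKM in the scratched and unscratched libraries labelled KO, against 3.63 and 3.89 in scratched and unscratched WT cells.

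Slc1a5 (ENSMUSG00000001918, chromosome 7, 16781340 to 16798274, plus strand) encodes ASCT2, a glutamine exchanger often named together with LAT1. It had 50.8 and 43.8 CPM in the scratched and unscratched libraries labelled KO and 45.0 and 43.6 CPM in scratched and unscratched WT cells. The scratched library labelled KO was the highest and the other 3 were close to each other. The scratch fold was 1.16 (1.08 to 1.24) under the KO label and 1.03 (0.954 to 1.12) in WT cells, and the coefficient of 0.14 ± 0.06 did not pass (adjusted p = 0.267, edgeR). In WT cells the log2 response of Slc1a4 was larger than that of Slc1a5 by 0.56 (0.29 to 0.83), while under the KO label the difference was 0.14 with an interval that includes 0 (-0.07 to 0.35).

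Slc6a9 (ENSMUSG00000028542, chromosome 4, 117834506 to 117875198, plus strand) encodes the glycine transporter GlyT1. It had 30.5 and 21.4 CPM in the scratched and unscratched libraries labelled KO and 29.1 and 24.1 CPM in scratched and unscratched WT cells, from 633 to 1462 counts. Both scratched libraries were above both unscratched ones, by 1.43-fold (1.30 to 1.57) under the KO label and 1.21-fold (1.09 to 1.34) in WT cells. The coefficient was 0.40 ± 0.08 (adjusted p = 0.00761, edgeR), but 0.458 with DESeq2 and 0.0948 with limma, over a range of 0.000228 to 0.458 for 6 alternatives. Exons of Slc6a9 overlap those of B4galt2, Ccdc24 and Gm17114 on the other strand, which had 0 to 14 counts a library. The kit keeps strand, but the counting setting is not stated, and the Slc6a9 counts carry that uncertainty.

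The scratch response was larger under the KO label than in WT cells, beyond counting error, for 4 of the 10 genes. The differences on the log2 scale were 0.27 for Slc38a2 (0.22 to 0.32), 0.24 for Slc6a9 (0.04 to 0.44), 0.17 for Slc1a5 (0.02 to 0.32) and 0.13 for Slc7a5 (0.04 to 0.21). For the remaining 6 the interval held 0, with Slc1a4 at -0.25 (-0.56 to 0.05), Slc7a3 at 0.20, Slc38a1 at 0.07 and Slc3a2, Slc7a11 and Slc7a1 within 0.03 of 0. Of all genes, 26.8% had such an interval that left out 0 in either direction, so 4 of 10 is near the background. The share of all genes with a larger response under the KO label was not counted. With 1 library a group the difference could not be tested against replicate error.

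Cells labelled Lingo1 KO were set against WT cells with the scratch held in the model. Of the 10 transporters, 2 rose and 1 fell in the libraries labelled KO by edgeR's test: Slc7a11 and Slc1a4 rose and Slc38a2 fell. The same fit called 26.0% of all genes, 13.8% as risen and 12.2% as fallen, so 3 of 10 is near the background. DESeq2 called 0 of the 10 (2 at an unadjusted p under 0.05), and limma called 2, Slc7a11 and Slc1a4. Over all genes DESeq2 called 7.84% and limma 19.8%. The 7 others had coefficients of -0.36 ± 0.19 (Slc7a3), -0.08 ± 0.06 (Slc3a2), -0.04 ± 0.08 (Slc6a9), 0.00 ± 0.06 (Slc7a5), 0.05 ± 0.06 (Slc7a1), 0.09 ± 0.06 (Slc1a5) and 0.15 ± 0.06 (Slc38a1), and did not pass. The pairwise rule called 1 higher and 0 lower with a scratch, where 12.8% of all genes were called, 7.28% higher and 5.47% lower. Without a scratch it called 2 higher and 2 lower (Slc38a2 and Slc7a3), where 16.5% of all genes were called, 8.93% higher and 7.56% lower. Slc7a11 was the only one called in both. Some cell type markers also differed between the genotypes. The alveolar type 2 markers summed to 422 and 451 CPM in the scratched and unscratched libraries labelled KO, against 325 and 371 CPM in scratched and unscratched WT cells. Sftpb and Sftpc (19.8 and 20.6 CPM, against 6.42 and 5.68 CPM) were higher under the KO label. Abca3 differed little (176 and 185 CPM, against 165 and 175 CPM). Nkx2-1 overlapped (132 and 137 CPM, against 128 and 163 CPM), and Napsa was lower (1.17 and 1.28 CPM, against 1.90 and 1.48 CPM). The fibroblast markers went both ways. Col1a1 had 177 and 197 CPM in the scratched and unscratched libraries labelled KO, against 16.5 and 21.3 CPM in scratched and unscratched WT cells. Pdgfra was also higher (1.94 and 2.30 CPM, against 1.15 and 1.29 CPM). Dcn, by far the most abundant, was lower (2481 and 2710 CPM, against 2819 and 2846 CPM). Col1a2 and Col3a1 did not exceed 0.203 CPM in any library, and the summed fibroblast markers overlapped. The part of all these markers in the transporter values was not tested. All 4 pairwise comparisons draw on the same 4 libraries, so each shares a library with others.

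**Figure D3:**
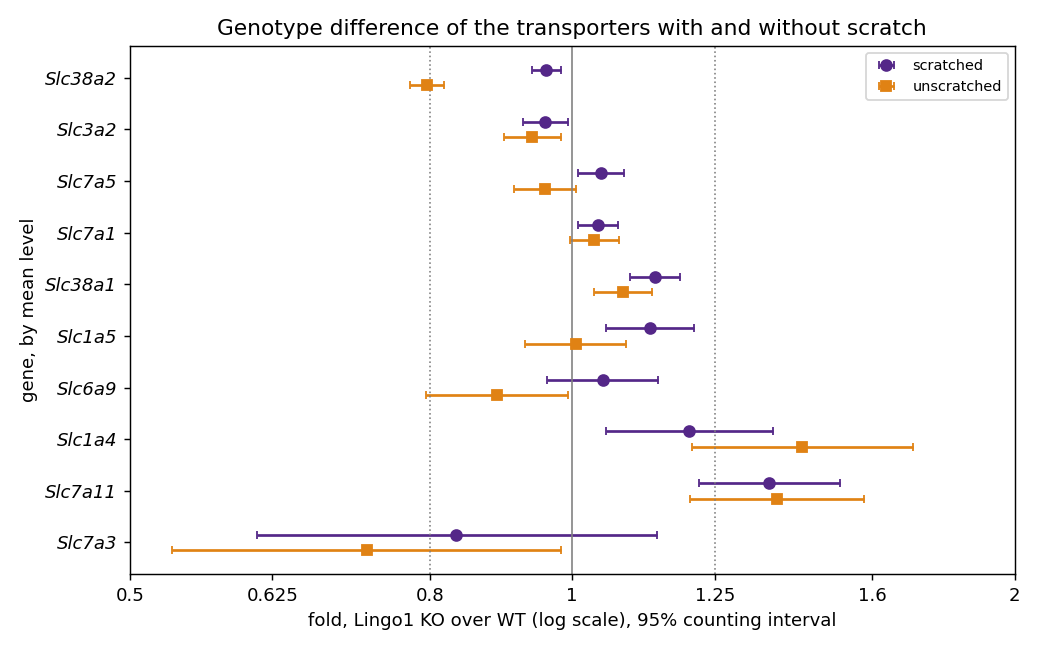
Fold of each transporter, labelled Lingo1 KO over WT (log axis), in scratched (circles) and unscratched cells (squares), with bars for the 95% counting interval and dotted lines at 0.8 and its inverse. Slc7a11 is at 1.36 with a scratch and 1.38 without, Slc38a2 is at 0.960 with a scratch and 0.797 without, and Slc3a2, Slc7a5 and Slc7a1 lie close to 1.

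Other amino acid transporters were listed for comparison, 45 genes of the plasma membrane and lysosome, of which 18 reached 1 CPM in a library. After the scratch edgeR called 0 of these 18, beside 2.91% of all genes, so 0 of 18 is near the background. Their median coefficient was -0.02, and 3 were at an unadjusted p under 0.05. DESeq2 and limma also called 0. The most abundant, the taurine carrier Slc6a6, had 189 and 183 RPKM in the scratched and unscratched libraries labelled KO and 167 and 166 RPKM in scratched and unscratched WT cells, a scratch coefficient of 0.03 ± 0.06. Slc38a10 was at 0.04 ± 0.06.

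Between the genotypes edgeR called 4 of these 18 as risen and 3 as fallen, beside 13.8% and 12.2% of all genes. DESeq2 called 2 and 1, and limma 4 and 3, where they called 7.84% and 19.8% of all genes either way. Slc43a2, a carrier of large neutral amino acids, rose by 1.10 ± 0.14 (log2, adjusted p = 8.84e-07, edgeR), Slc7a2 by 0.61 ± 0.06 (adjusted p = 5.50e-09, edgeR) and the light chain Slc7a7 by 0.52 ± 0.13 (adjusted p = 0.00321, edgeR). Slc66a1, a lysosomal exporter of cationic amino acids, was at -0.43 ± 0.08 (adjusted p = 0.000322, edgeR). Slc7a6, Slc38a10 and Slc6a6 did not pass, at coefficients between -0.09 and 0.17.

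Enzymes of amino acid synthesis were also called after the scratch. By edgeR 10 of 18 tested rose and 0 fell, with a median of 0.31, beside 1.47% of all genes risen and 1.44% fallen. This list too was chosen with earlier results of these data known. DESeq2 called 8 and limma 7 as risen, where they called 0.332% and 0.375% of all genes either way. Asparagine synthetase Asns (0.57 ± 0.06), the mitochondrial folate enzyme Mthfd2 (0.51 ± 0.06), the serine synthesis enzyme Psph (0.51 ± 0.07) and the folate enzyme Aldh1l2 (0.46 ± 0.06) had the largest coefficients of those that passed. The abundant Pycr1, Got1, Got2 and Glul did not pass, at -0.04 to 0.17. Between the genotypes 3 rose (Mthfd1l at 0.38 ± 0.08, Got2 at 0.37 ± 0.06 and Shmt2 at 0.19 ± 0.06) and 3 fell by edgeR, among them Asns at -0.18 ± 0.06. Over all genes edgeR called 13.8% as risen and 12.2% as fallen. DESeq2 called 1 of the enzymes as risen and 0 as fallen, and limma 3 and 1, where they called 7.84% and 19.8% of all genes either way.

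The regulators and markers of the ATF4 response changed in both directions. By edgeR 6 of 18 tested rose with the scratch and 1 fell (Asns is in both lists), beside 1.47% and 1.44% of all genes. DESeq2 called 1 and limma 3, all as risen, where they called 0.332% and 0.375% of all genes either way. Atf4 itself rose by 0.25 ± 0.06, the pseudokinase Trib3 by 0.56 ± 0.08, the glutathione-degrading enzyme Chac1 by 0.48 ± 0.10 and the stress protein Nupr1 by 0.42 ± 0.10. Ddit3 (CHOP) was at 0.24 ± 0.10 (adjusted p = 0.205, edgeR) and Ddit4, an inhibitor of mTORC1, fell by 0.22 on the log2 scale. The scratch folds under the KO label and in WT cells were 1.10 and 1.29 for Atf4 and 1.14 and 1.56 for Nupr1. They were 1.48 and 1.46 for Trib3 and 1.45 and 1.35 for Chac1. Between the genotypes edgeR called 0 as risen and 5 as fallen, beside 13.8% and 12.2% of all genes. DESeq2 called 1 and limma 4 as fallen, where they called 7.84% and 19.8% of all genes either way. Atf4 was at -0.22 ± 0.06, Ddit3 at -0.35 ± 0.10 and Nupr1 at -0.53 ± 0.10 in this comparison, while Trib3 was at 0.14 ± 0.08 (adjusted p = 0.254, edgeR) and did not pass. On the RPKM scale Atf4 was at 104 and 95.5 in the scratched and unscratched libraries labelled KO, against 133 and 103 in scratched and unscratched WT cells.

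**Figure D4:**
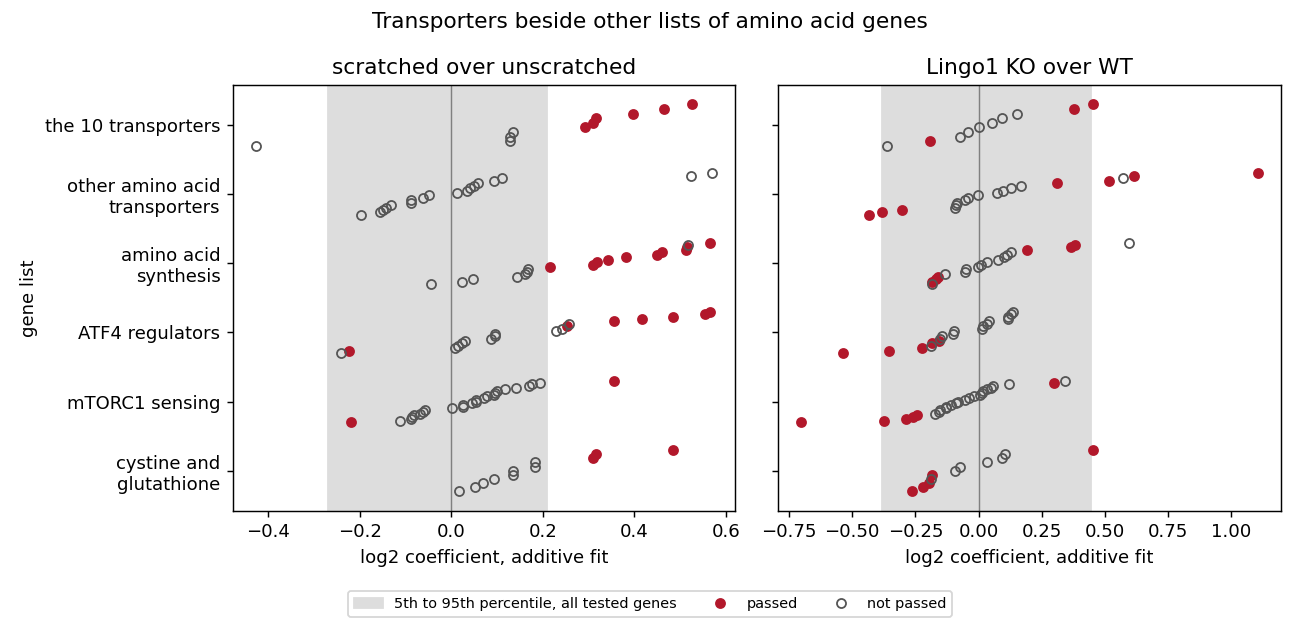
Coefficients of the additive fit (log2) for the scratch (left) and the genotype (right), 1 point a gene, for the 10 transporters and 5 other lists; filled points passed in the edgeR fit at an adjusted p of 0.05, and the grey band spans the 5th to the 95th percentile of all 12348 genes. After the scratch 6 of the 10 transporters and 10 of 18 synthesis enzymes are filled on the right, and none of the 18 other transporters is filled. The fit called 2.91% of all genes for the scratch.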

How the data were processed

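The authors deposited raw read counts for 46078 Ensembl genes and RPKM values for 14844 of them (161 rows without values), 1 column for each of 4 libraries. Per the submitters' processing notes the tools include STAR 2.7.9a, Trimmomatic 0.39, edgeR 3.32.1 and HTSeq 0.11.3, with mm10 as the build. The sources used here state neither the annotation release nor the strand setting, nor the library scaling of the deposited RPKM values. Libraries were stranded, per the labels' protocols. Columns were matched by genotype and by S for scratch. The remaining letter, N, was read as unscratched, and every scratch value rests on that.

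Folds came from the counts, scaled with TMM factors; genes with at least 1 CPM in at least 1 library were tested (12348). Comparing levels between genes used RPKM. Intervals are 95% and cover counting error only, since no molecular identifiers are stated. The additive fit used edgeR 4.0.16 in R 4.3.3 (spread 5.49%, 25.4 prior degrees of freedom), with DESeq2 1.42.0 and limma 3.58.1 (pseudocount 0.1) as alternatives, along with other scalings, filters and fold limits. Both edgeR and the intervals were run on simulated counts, edgeR's additive with a spread near the one above and the intervals' with counting error only. Such runs cannot show how replicate cultures would vary. Figures used matplotlib 3.10.9 and Python 3.11.15. Positions came from GENCODE M21. From other lists, up to 4 genes per comparison with the largest coefficients among those that passed were eligible to be named, plus genes above the median transporter in RPKM and 6 fixed regulators. The members and lists were chosen with earlier results of these data known. Protein sequences were not used here.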

Additional observations from a re-analysis of the deposited data

Results flagged for a closer look

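For 3 transporters the point values of one contrast lay on opposite sides of 1 in the levels of the other factor, with a difference whose counting interval left out 0, as did that of 26.8% of all genes whichever the sides. No opposite direction is shown, since 1 value of each pair lay within counting error of 1. Slc38a2 was higher after the scratch under the KO label (1.20-fold) and at 0.996-fold in WT cells, a log2 difference of 0.27. Slc6a9 was at 1.05-fold in labelled KO over WT with a scratch and 0.889-fold without, a log2 difference of 0.24, and Slc7a5 at 1.05-fold and 0.958-fold, a log2 difference of 0.13. The difference was not tested in any of them, because each group is 1 library. The values within counting error of 1 were the WT scratch response of Slc38a2, the labelled KO to WT fold of Slc6a9 with a scratch and that of Slc7a5 without.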

How the results depend on the processing

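With 1 library a group, leaving out a library leaves no residual degree of freedom, and depth limits mainly Slc7a3, at 72 to 103 counts. No paired analysis was possible because no group has a replicate number to share. With authors' RPKM and a pseudocount of 1, the number of transporters called was 2 for the scratch under the KO label, 2 for the scratch in WT, 0 for labelled KO against WT with a scratch and 2 without. At a fold of at least 1.5 these numbers were 1, 1, 0 and 0, and at a fold of at least 2 all 4 were 0. In the additive fit DESeq2 called 3 of the 10 for the scratch and 0 for the genotype, and limma on RPKM called 1 for the scratch. DESeq2 gave no adjusted p for Slc1a4 and Slc7a3 in the scratch comparison. The other 29 counts stayed within 1.5 times. The genotype coefficient of Slc7a5, near 0, changed sign with DESeq2 (-2.1e-05), DESeq2 size factors (-0.00045), total counts (-0.0067) and limma (-0.0030). Of the remaining single-gene values, 259 kept their side of the threshold or stayed within their interval and 13 lost their call in the same direction. Over all genes, the 359 scratch calls became 41 with DESeq2 and 46 with limma, and the 3205 genotype calls became 968 and 2423. With total counts 40.1% of the scratch calls were rises, against 50.4% with TMM. The causes of these changes were not tested.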

Other observations

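For genes that sense amino acids for mTORC1, the kinase complex that couples amino acid supply to growth, edgeR's calls were near the background. By edgeR 1 of 25 tested rose with the scratch and 1 fell, beside 1.47% and 1.44% of all genes, and neither DESeq2 nor limma called any. The leucine sensor Sesn2 rose by 0.36 ± 0.08 (log2, SE) and the arginine sensor paralog Castor2 fell by 0.22 on the log2 scale. Sesn2 is also in the list of ATF4 regulators and was counted there. The abundant Mtor, Rraga, Rragc, Lamtor1, Lamtor2, Lamtor4, Lamtor5, Nprl2, Flcn, Tsc2 and Rheb were between -0.08 and 0.17 and did not pass. In the libraries labelled KO 1 rose (Sesn3, 0.30 ± 0.06) and 5 fell, among them the Rag GTPases Rragd (-0.70 ± 0.09) and Rragc (-0.29 ± 0.06) and their regulator Flcn (-0.38 ± 0.06). These shares of 25 genes stand beside 13.8% risen and 12.2% fallen over all genes by edgeR. DESeq2 called 0 of the 25 as risen and 3 as fallen, where it called 7.84% of all genes. With limma 2 rose and 6 fell, where it called 19.8% of all genes.

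Of 11 genes of cystine uptake and glutathione metabolism, 3 rose after the scratch (Chac1, Slc7a11 and Slc3a2) and 0 fell by edgeR, beside 1.47% of all genes risen and 1.44% fallen. All 3 were already counted above, Slc7a11 and Slc3a2 among the transporters and Chac1 among the ATF4 regulators. No gene particular to this list passed after the scratch by edgeR. DESeq2 and limma each called 1 as risen, where they called 0.332% and 0.375% of all genes either way. In the libraries labelled KO 1 rose by edgeR, Slc7a11, and 4 fell, beside 13.8% and 12.2% of all genes. DESeq2 called 0 as risen and 1 as fallen and limma 1 and 3, where they called 7.84% and 19.8% of all genes either way. Among those that fell by edgeR were the ferroptosis suppressor Aifm2 (-0.26 ± 0.07), the thioredoxin reductase Txnrd1 (-0.22 ± 0.06) and the glutathione synthesis enzyme Gclc (-0.19 ± 0.06). Gpx4 and Nfe2l2 did not pass, at 0.04 and -0.09.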
